A study of Mus musculus with 16 samples.

Results

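TRAV9N-3 and TRAV9D-3 are the mouse T cell receptor (TCR) α variable segments that encode Vα3.2, and their rearrangements were followed here in CD8 T cells with and without Themis. A rearrangement was counted as a member when the first V hit in the clone table was TRAV9N-3 or TRAV9D-3. By this rule 5686 of 83992 CDR3 nucleotide sequences were members, with 1074 of them in libraries of all CD8 cells and 4612 in libraries of sorted Vα3.2+ cells. TRAV9N-3 was listed first for 2525 member sequences and TRAV9D-3 for 3161. The 16 libraries formed 8 groups of 2. Each group combined a genotype (Themis+/+ or Themis-/-), a tissue (single-positive CD8 cells of the thymus, or lymph node, LN) and a sort (all CD8 cells, or Vα3.2+ cells taken with an antibody). All mice were on a C57BL/6 background and carried the Foxp3-GFP reporter in both genotypes. The Themis-/- mice descend from B6.129S-Themis tm1Gasc, a germline deletion that removes the protein from every cell, so that thymic and peripheral effects of the loss are not separated. Neither labels nor methods state ages for these libraries. The series text speaks of individual mice and the methods of lymph nodes pooled from several mice, so the spread between the libraries of a group may be that of mice or of pools.

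A TCRα chain is made when a V segment is joined to a J segment in developing thymocytes. The joint forms the third complementarity-determining region (CDR3), the loop that lies over the peptide. Exonucleases can trim the V and J ends, opening of hairpin ends can leave palindromic (P) bases, and terminal deoxynucleotidyl transferase adds untemplated N bases. J segments are numbered downward towards the constant region. Repeated rearrangement of an α locus moves from J segments near the V genes (high numbers) to J segments near the constant region (low numbers). Themis is a T cell protein that sets signalling thresholds in thymic selection.

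Both segments are annotated TCR V genes on the plus strand of mouse chromosome 14 (GRCm38, GENCODE), TRAV9D-3 from 52920443 to 52921112 and TRAV9N-3 from 53231433 to 53232102, which places them 310 kb apart. Their annotated transcripts have 0 mismatches over 575 bases, so their reads cannot be assigned by sequence. The last 58 bases of the segment are shown first, with the 13 bases that enter the CDR3 in capitals. The CDR3 ends of relatives follow, with the last 2 germline bases in capitals, because the final base opens the codon of CDR3 position 5 and the bases after the V end are later compared with the reverse complement of this pair.
TRAV9N-3 and TRAV9D-3, 3′ end: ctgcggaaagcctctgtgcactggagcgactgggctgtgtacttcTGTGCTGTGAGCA
TRAV9N-3 and TRAV9D-3, CDR3 part: tgtgctgtgagCA
TRAV9N-4 and TRAV9D-4, CDR3 part: tgtgctctgagCA
TRAV9-1, TRAV9-4 and TRAV9D-1, CDR3 part: tgtgctgtgagCG
TRAV9-2, CDR3 part: tgtgttttgagCG
TRAV9D-2 and TRAV9N-2, CDR3 part: tgtgttctgagCG

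The CDR3 parts of the 2 J segments that most often joined the members are the following, and the TRAJ9 part recurs in a widely shared CDR3 shown further on.
TRAJ9, CDR3 part: agcaacatgggctacaaacttaccttc
TRAJ12, CDR3 part: gggactggaggctataaagtggtcttt

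The listing of one segment before the other followed the number of V bases kept. In the tables the germline CDR3 part of TRAV9N-3 had 13 bases and that of TRAV9D-3 had 11, and in RefSeq on the same assembly TRAV9D-3 ends 2 bases before the GENCODE end. Of the 2142 member sequences that kept all 13 bases, 93.7% had TRAV9N-3 first. Of the 1291 that kept 12 bases, 13.2% had TRAV9N-3 first. A count of TRAV9N-3 alone therefore chooses sequences by their V end, and the segments were treated as a single unit.

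The libraries of all CD8 cells stood apart from the sorted libraries at the 3′ end of the CDR3. Compared with the germline J segment, 38.2% to 57.3% of the member sequences in a library of all CD8 cells had a substitution in the last 9 CDR3 bases, against 0.201% to 2.63% in a sorted library. Among all CD8 cells, T-to-G changes made up 73.2% of these substitutions. The largest set of such variants, in library 2 of Themis-/- LN, held 8 sequences joined to TRAJ50, of which the 3 with most reads (62, 31 and 11) are shown with the last 9 bases in capitals.
Variant with 62 reads: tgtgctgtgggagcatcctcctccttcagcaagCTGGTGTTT
Variant with 31 reads: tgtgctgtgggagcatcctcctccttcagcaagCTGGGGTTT
Variant with 11 reads: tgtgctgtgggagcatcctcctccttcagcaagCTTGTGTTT

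Merging member sequences that shared their J segment, length and all but the last 9 bases lowered their number by 26.5% to 51.0% in libraries of all CD8 cells and by 0% to 1.05% in sorted libraries. The tables of both kinds of library also differed in their columns, so the sort and the way the tables were made cannot be told apart. Counts of distinct sequences in all CD8 cells are given beside merged counts where they carry a comparison.

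Members took a larger share of the reads in Themis-/- LN than in any other group of all CD8 cells. In Themis-/- LN they made up 3.22% of the reads in library 1 (95% Wilson interval 3.08% to 3.35%) and 2.38% in library 2 (2.27% to 2.48%). In Themis+/+ LN they made up 0.610% (0.568% to 0.654%) and 1.32% (1.23% to 1.41%). Both Themis-/- LN libraries lay above both Themis+/+ LN libraries. These intervals cover counting error only, since PCR reads without molecular identifiers are not independent molecules. In thymus the shares were 0.862% and 0.698% in Themis+/+ and 0.917% and 0.999% in Themis-/-, which do not overlap but differ by far less. A larger share of reads can come from more cells or from more TCRα RNA per cell, which reads alone cannot tell apart. By flow cytometry the paper reports that Vα3.2+ cells formed a larger part of peripheral CD8 T cells in Themis-/- mice. Their total counts were the same in both genotypes.

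**Figure D1:**
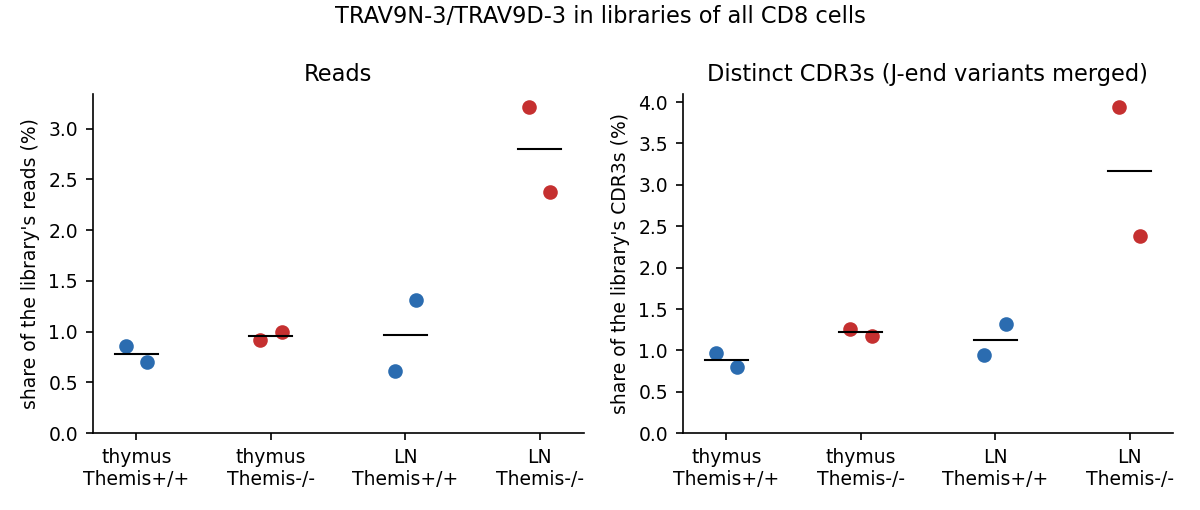
Member share in each library of all CD8 cells (8 libraries), as percent of reads (left) and as percent of distinct CDR3s after merging J-end variants (right). Points are libraries, blue for Themis+/+ and red for Themis-/-, and bars are means of 2 libraries. The 2 Themis-/- LN libraries, at 3.22% and 2.38% of reads, lie above the other 6.

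Between genotypes in LN the member share differed by 1.49 ± 0.43 (SE) on the log2 scale, from 0.963% ± 0.499 to 2.80% ± 0.593 (SD, n = 2). This passed the test (edgeR quasi-likelihood test over 8 libraries, adjusted p = 0.0419). Of the 113 V segments tested 1 was called higher, a share of 0.885%, and that was the members. In either direction 3 segments were called, 2.65%, of which 2 were lower, TRDV2-1 and TRDV2-2, 1.77%, and the median log2 difference over all segments was -0.09. The call was lost in a fit of the 4 LN libraries alone (adjusted p = 0.209, edgeR) and with TRAV9N-3 first hits alone (1.85, adjusted p = 0.0602, edgeR). It was also lost without library 1 of Themis-/- LN (log2 difference 1.25), library 1 of Themis+/+ LN (1.22), library 2 of Themis-/- thymus (1.49), or library 1 (1.69) or 2 (1.49) of Themis+/+ thymus, at adjusted p from 0.0671 to 0.196 (edgeR).

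The share in Themis-/- LN was spread over many sequences. After merging J-end variants, libraries 1 and 2 there still held 103 and 77 member sequences. Before merging, the most abundant member sequence held 161 of 2145 reads in library 1 and 86 of 1922 in library 2. Without it the member share was 2.97% and 2.27%. J-end variants can split a leading sequence, as with the TRAJ50 variants of 62, 31 and 11 reads in library 2. The reads of the leading merged sequence were not computed. In library 2 of Themis+/+ LN a single sequence held 221 of the 756 member reads, and without it the share fell from 1.32% to 0.931%. As a share of distinct sequences after merging, members made up 3.95% and 2.38% in Themis-/- LN against 0.940% and 1.31% in Themis+/+ LN. By this count the log2 difference was 1.53 (edgeR, adjusted p = 2.49e-07). Of 106 V segments tested by this count 6 were called, 2 of them higher, so the members were not the only segment called higher. Fits with 1 library left out were not made on this count.

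In thymus the genotypes differed by 0.38 ± 0.42 (SE, log2), which did not pass (edgeR, adjusted p = 0.834). By reads no V segment was called in that comparison, 0%, with 8 at an unadjusted p under 0.05 and 0 by DESeq2. By distinct sequences 2 of 107 V segments were called, and after merging 4 of 106, all lower in Themis-/- (edgeR). The members were not among them.  The difference between the genotype effects in LN and thymus was 1.12 ± 0.60 (SE, log2), and it also did not pass (edgeR, unadjusted p = 0.0667, adjusted p = 0.764). In that comparison 1 segment was called, TRDV2-1, lower, 0.885%. The larger effect in LN is therefore not shown to differ from that in thymus by reads.

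Between tissues, the member share in Themis-/- was higher in LN than in thymus by 1.60 ± 0.43 (SE, log2; edgeR, adjusted p = 0.0315), again as the only segment called higher among 113 (0.885%, with TRAV6-2 and TRDV2-1 lower, 1.77%). This call was lost in a fit of the 4 Themis-/- libraries alone (1.70, adjusted p = 0.134, edgeR) and with TRAV9N-3 first hits alone (1.33, adjusted p = 0.176, edgeR). It was also lost without library 1 of Themis-/- LN (1.35), either Themis-/- thymus library (1.65 and 1.58) or either Themis+/+ thymus library (1.71 and 1.60), at adjusted p from 0.0721 to 0.221 (edgeR). In Themis+/+ the tissues differed by 0.48 ± 0.42 (SE, log2), which did not pass (edgeR, adjusted p = 0.938), and 0 segments were called by edgeR or DESeq2, with 0 and 1 at an unadjusted p under 0.05.

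The other TRAV9 segments, which with the members form the Vα3 family, gave no call. Of the 9 on the list, 8 were listed in these tables and tested, and 0 of 8 passed in any of the 5 contrasts (edgeR), with at most 1 at an unadjusted p under 0.05. In LN their log2 differences between genotypes ran from -1.73 (TRAV9-1) to 3.33 (TRAV9D-1, edgeR adjusted p = 0.145), with a median of 0.22 against 1.49 for the members. TRAV9D-1 made up 0.361% and 0.0458% of the Themis-/- LN reads and 0.0398% and 0% of the Themis+/+ LN reads. TRAV9-4, the most abundant relative in Themis-/- LN library 1, held 0.507% and 0.376% in Themis-/- LN and 0.465% and 0.186% in Themis+/+ LN.

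The V segments whose read share moved most like that of the members over the 8 libraries were TRAV6-5 (Pearson r = 0.846 of log2 shares), TRAV3N-3 (0.767) and TRAV8D-2 (0.759), out of 112 compared. These values share the same libraries and totals and are a description only.

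In the sorted libraries the gate set the member share, which ran from 41.2% to 89.3% of the reads. By group and library it was 83.1% and 53.2% in Themis+/+ thymus, 88.5% and 41.2% in Themis-/- thymus, 89.3% and 67.3% in Themis+/+ LN and 86.7% and 54.6% in Themis-/- LN. Library 2 was lower than library 1 in all 4 groups. Nearly all remaining reads came from other TRAV9 segments, which held 10.5% to 58.6%, and segments outside the family held 0.122% to 1.17%. In library 2 of each group TRAV9-4 was the most abundant of these, at 19.9% to 38.7% of reads. The part of this difference between libraries 1 and 2 in the results on sorted cells was not tested, and those results use member sequences only. The invariant NKT chain (TRAV11 or TRAV11D with TRAJ18) and the MAIT chain (TRAV1 with TRAJ33) were at 0 reads in all 8 sorted libraries, which allows a share of up to 0.0119% to 0.0290% of a library. In all CD8 cells they made up at most 0.419% and 0.0424% of the reads.

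Members were joined mainly to J segments near the constant region. TRAJ9 was the most frequent partner at 8.34% ± 2.41 (SD, n = 8) of the member sequences in sorted libraries, followed by TRAJ12 (7.09% ± 1.02), TRAJ22 (6.78% ± 1.59), TRAJ15 (6.17% ± 1.63), TRAJ7 (4.77%) and TRAJ23 (4.70% ± 1.58). The order among these 6 is within the spread of libraries for most neighbours. Together they held 37.9% of the sequences, and 43 J segments were used in all. In the other V segments of all CD8 cells TRAJ9 held 2.74% of the sequences and TRAJ12 4.84%. In the all CD8 libraries after merging, TRAJ9 held 8.91% of member sequences and TRAJ12 9.64%, the highest shares there too.

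Grouped by position, TRAJ2 to TRAJ9 held 25.8% ± 3.06 and TRAJ11 to TRAJ18 27.4% ± 2.58 of the member sequences in sorted libraries (SD, n = 8). In the middle of the cluster TRAJ21 to TRAJ28 held 24.3% ± 1.85 and TRAJ30 to TRAJ35 11.3% ± 1.55. At the V-proximal end TRAJ37 to TRAJ47 held 5.93% ± 1.39 and TRAJ48 to TRAJ61 5.21% ± 2.00. In other V segments the V-proximal groups were larger, at 15.04% ± 3.07 and 14.8% ± 3.87, and TRAJ2 to TRAJ9 held 9.33% ± 3.41. The mean J segment number in all CD8 libraries was 17.3 to 24.0 for members and 25.8 to 33.4 for other V segments, lower for members in 8 of 8 libraries. The difference averaged -8.36 (exact sign-flip permutation test over 8 libraries, two-sided, adjusted p = 0.0137 over 7 measures). The smallest p this test can give is 0.00781.

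**Figure D2:**
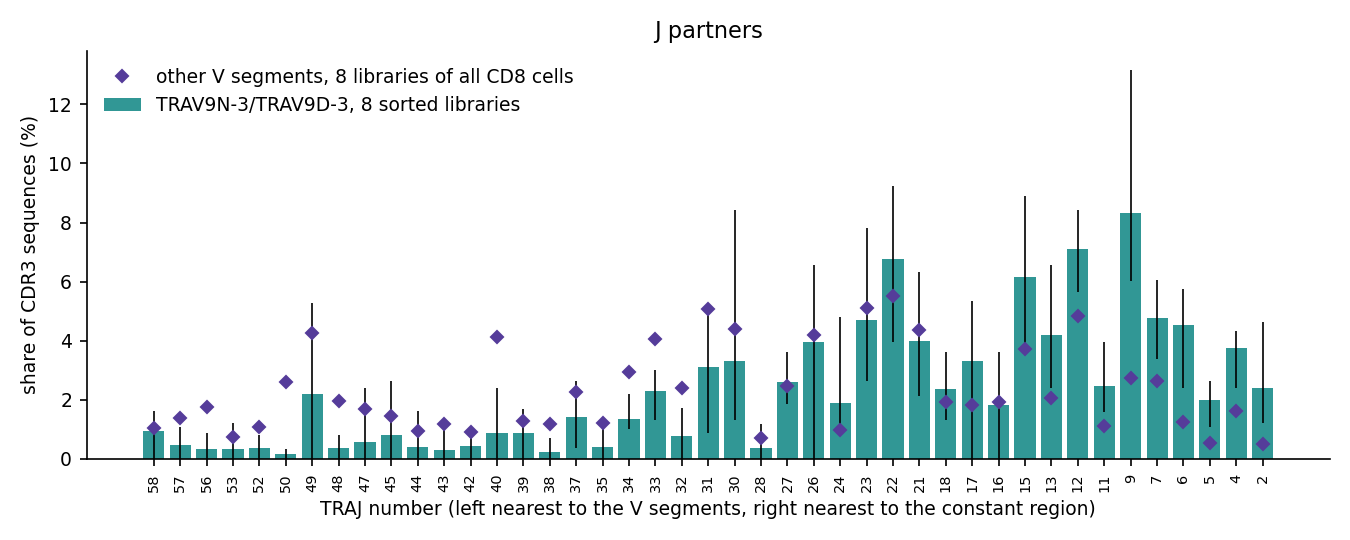
J partners of the members along the locus, from V-proximal (left) to constant-region-proximal (right) TRAJ numbers. Bars are mean shares of member sequences over 8 sorted libraries with the range over libraries, and diamonds are mean shares of other V segments over 8 libraries of all CD8 cells. TRAJ9, towards the right, stands at 8.34% against 2.74% for other V segments.

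Other V segments had a similar J use. Among 83 V segments with at least 200 sequences, the J use of TRAV6N-6 (Pearson r = 0.857 over 44 J segments), TRAV8D-2 (0.847) and TRAV14D-3-DV8 (0.828) was most like theirs, against a median r of 0.498. J segments are not independent points, and these are descriptions.

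In the counts of distinct sequences no J partner was called between genotypes or tissues. Of 36 J segments tested in the sorted libraries 0 were called in any of the 5 contrasts (0%, edgeR), with 0 at an unadjusted p under 0.05 between genotypes in LN and 3 in each of the other contrasts. After merging J-end variants edgeR called 1, TRAJ31, higher in LN than in thymus of Themis-/-. DESeq2 called 0, with 0 to 3 at an unadjusted p under 0.05. With 76 and 83 member sequences in library 1 of each thymic group, a single J segment there rests on a few sequences.

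Methionine at CDR3 position 5 was the most common residue there among the members, and it lay at the end of the untrimmed V segment. It occurred in 1274 member sequences, 22.4% of all, always as the codon ATG. The last germline base, A, is the first base of this codon. Of the 1274, 1191 (93.5%) kept all 13 germline bases and had TG next, which is the reverse complement of the last germline bases CA and so has the sequence of a P addition. TG can also match the germline J segment, as in the TRAJ33, TRAJ21 and TRAJ4 CDR3s shown further on. How many of the 1191 match the J segment there was not counted. In sorted libraries the methionine share among the 6 leading J segments ran from 11.3% (TRAJ22) to 33.7% (TRAJ9). Of the 2142 sequences with all 13 bases, 55.6% had TG next, and the next most common pair, TA, followed 9.24%. A sequence that kept exactly 12 bases lacks this A, so its 0 with methionine at this position follows from the definition. Of those with 11 bases it was 2.53%.

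**Figure D3:**
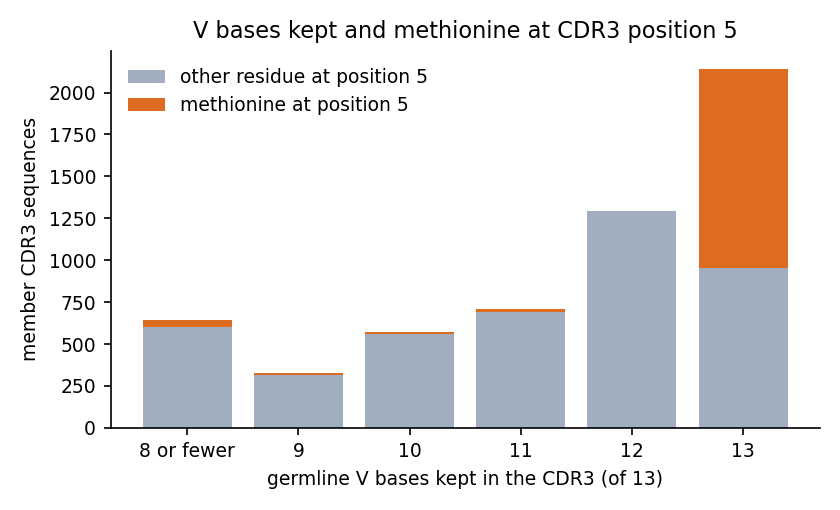
Member CDR3 sequences of all 16 libraries by the number of germline V bases kept, with methionine at position 5 in orange. Of 2142 sequences with all 13 bases 1191 carry it, and in the shorter classes it reaches at most 6.08%.

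The relatives were read the same way. TRAV9N-4, which also ends in CA, had TG after 65.4% of its full-length ends and methionine in 24.9% of 433 sequences. TRAV9-4 ends in CG and had CG next, its own reverse complement, after 57.5% of full-length ends, and methionine in 2.34% of 641 sequences. Over the 19 other V segments that end in CA, TG followed 1406 of 3200 full-length ends, 43.9%. Over 86 other V segments with at least 50 full-length ends, the reverse complement followed 1.17% to 69.6% of these ends (median 26.6%), and the members ranked 6 of 87.

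In the libraries of unsorted CD8 cells 2801 sequences of any V segment had methionine at this position, of which 254, or 9.07%, were members. Among all CD8 cells it was found in 18.8% to 32.7% of member sequences and in 2.79% to 3.94% of the sequences of other V segments together. It was higher for members in 8 of 8 libraries, by 20.1 percentage points on average (exact sign-flip permutation test, adjusted p = 0.0137, from the smallest p possible). Over all 16 libraries, single other segments that end in CA ran from 0% (TRAV2) to 24.9% (TRAV9N-4), with 17.9% in TRAV7D-5 and 15.4% in TRAV10D. The hydrophobic residues methionine, isoleucine and leucine together held position 5 in 34.1% to 48.1% of member sequences over 16 libraries and in 6.78% to 8.51% of other sequences in all CD8 cells. Among the other sequences of sorted libraries, mostly of TRAV9 relatives, they held it in 0% to 25%. Aspartate and glutamate, acidic residues, held it in 3.45% and 0.721% of member sequences against 15.3% and 13.1% of other sequences in all CD8 cells.

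The methionine share did not differ detectably with Themis or tissue. By library it was 21.2% and 18.8% in Themis+/+ and 32.7% and 18.8% in Themis-/- among all CD8 thymocytes, and 23.0% and 25% in Themis+/+ and 22.8% and 24.8% in Themis-/- among all LN cells. In sorted cells it was 26.3% and 26.7% in Themis+/+ thymus, 19.3% and 24.2% in Themis-/- thymus, 21.8% and 22.5% in Themis+/+ LN and 20.4% and 23.2% in Themis-/- LN. Over the 16 libraries the genotypes differed by 0.125 percentage points (exact permutation test within tissue and sort, adjusted p = 0.971) and the tissues by -0.538 (exact permutation test, adjusted p = 0.880).

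Counted from the GENCODE end to the deposited V end, member junctions had less V trimming than those of other V segments. Counted by sequence, they also had fewer N additions. By direct match over 16 libraries, 37.7% of member sequences kept the full germline V end, near the median of other V segments. Over 86 other V segments the median was 37.5%, with a range of 9.71% to 54.3%. In the 8 libraries of all CD8 cells member V ends had lost 1.03 to 1.71 bases on average, against 1.93 to 2.06 for other V segments, with less trimming in 8 of 8 libraries. The mean difference was -0.657 bases (exact sign-flip permutation test, adjusted p = 0.0137). By exact match to the annotated V end, member V ends in these libraries had lost 1.25 to 2.325 bases. That measure was not made for other V segments. Sequences without N additions made up 32.7% to 55.0% of members and 31.7% to 37.3% of other sequences, 10.2 percentage points more on average and higher in 8 of 8 libraries (exact sign-flip permutation test, adjusted p = 0.0137). This call was lost when sequences were weighted by reads (1.60 points, adjusted p = 0.921) and when sequences of 1 read were left out (9.21 points, adjusted p = 0.0911, exact sign-flip permutation tests). Mean N additions were lower in 7 of 8 libraries, with a mean difference of -0.325 bases (exact sign-flip permutation test, adjusted p = 0.0182), and weighting by reads ended that call too (-0.207 bases, adjusted p = 0.416 by the same exact test). These levels depend on the measure. By exact match to the annotated V and J ends, members had 2.32 to 3.06 inserted bases on average, and 8.97% to 32.5% had none. Other V segments were not read by exact match. The mean CDR3 was 0.478 bases shorter than in other V segments, 40.1 against 40.6 (exact sign-flip permutation test, adjusted p = 0.0182), shorter in 7 of 8 libraries, a call that ended with weighting by reads (-0.278 bases, adjusted p = 0.314 by the same exact test) and with TRAV9N-3 first hits alone (-0.134 bases, adjusted p = 0.508 by the same exact test). Set against other TRAV9 segments only, the deposited ends gave larger differences. These were -1.52 bases for V trimming, -2.16 for N additions and 18.9 points for sequences without N additions (exact sign-flip permutation tests, adjusted p = 0.0109 each). V trimming here mixes references, since it runs from the GENCODE end to the deposited V end. Where the deposited germline V is shorter, as for TRAV9D-3 (11 against 13 bases), trimming and N additions can come out higher. What part of these differences comes from the references was not tested. By direct match over 16 libraries, relatives lay on both sides of the members. The full germline V end was kept in 53.2% for TRAV9-4, 47.8% for TRAV9D-1, 44.9% for TRAV9-1, 40.7% for TRAV9-2 and 35.3% for TRAV9N-4. For TRAV9D-4 it was 25.9%, for TRAV9D-2 16.5% and for TRAV9N-2 14.3%. The direct match was not tested between segments. J trimming did not separate members from other V segments, at 2.60 and 2.56 bases (exact sign-flip permutation test, adjusted p = 0.797).

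Mean J trimming of the members was larger in Themis-/-. Among all CD8 thymocytes it was 2.71 and 2.45 bases in Themis+/+ and 2.82 and 3.46 in Themis-/-. Among all LN cells it was 1.95 and 2.18 in Themis+/+ and 2.90 and 2.38 in Themis-/-. In sorted thymocytes it was 1.97 and 2.50 in Themis+/+ and 2.55 and 2.56 in Themis-/-, and in sorted LN cells 2.65 and 2.70 against 2.68 and 2.75. Both Themis-/- libraries lay above both Themis+/+ libraries in 3 of the 4 strata, with overlap in sorted LN. The mean difference was 0.375 bases (exact permutation test over 16 libraries, two-sided, adjusted p = 0.0216). This test takes libraries of different tissue and sort as independent. Whether they come from different mice or pools is not stated in any source.

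This call was sensitive to the way it was made. Within the sorted libraries the difference was 0.182 bases and within all CD8 cells 0.568, and neither stratum can reach the threshold after adjustment (exact permutation tests, adjusted p = 0.389 each, smallest unadjusted p 0.0556). With J trimming read from an exact match to the annotated J segment it was 0.376 bases (exact permutation test, adjusted p = 0.151). With labels permuted within library number the adjusted p was 0.0547 (exact permutation test). The call also failed without any of 7 libraries, namely both Themis+/+ LN libraries of all CD8 cells (0.347 and 0.403), both Themis+/+ thymic libraries of all CD8 cells (0.407 and 0.343), library 2 of all Themis-/- thymocytes (0.295), or either sorted Themis-/- thymic library (0.376 and 0.374), at adjusted p from 0.0612 to 0.270 by exact permutation tests.

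**Figure D4:**
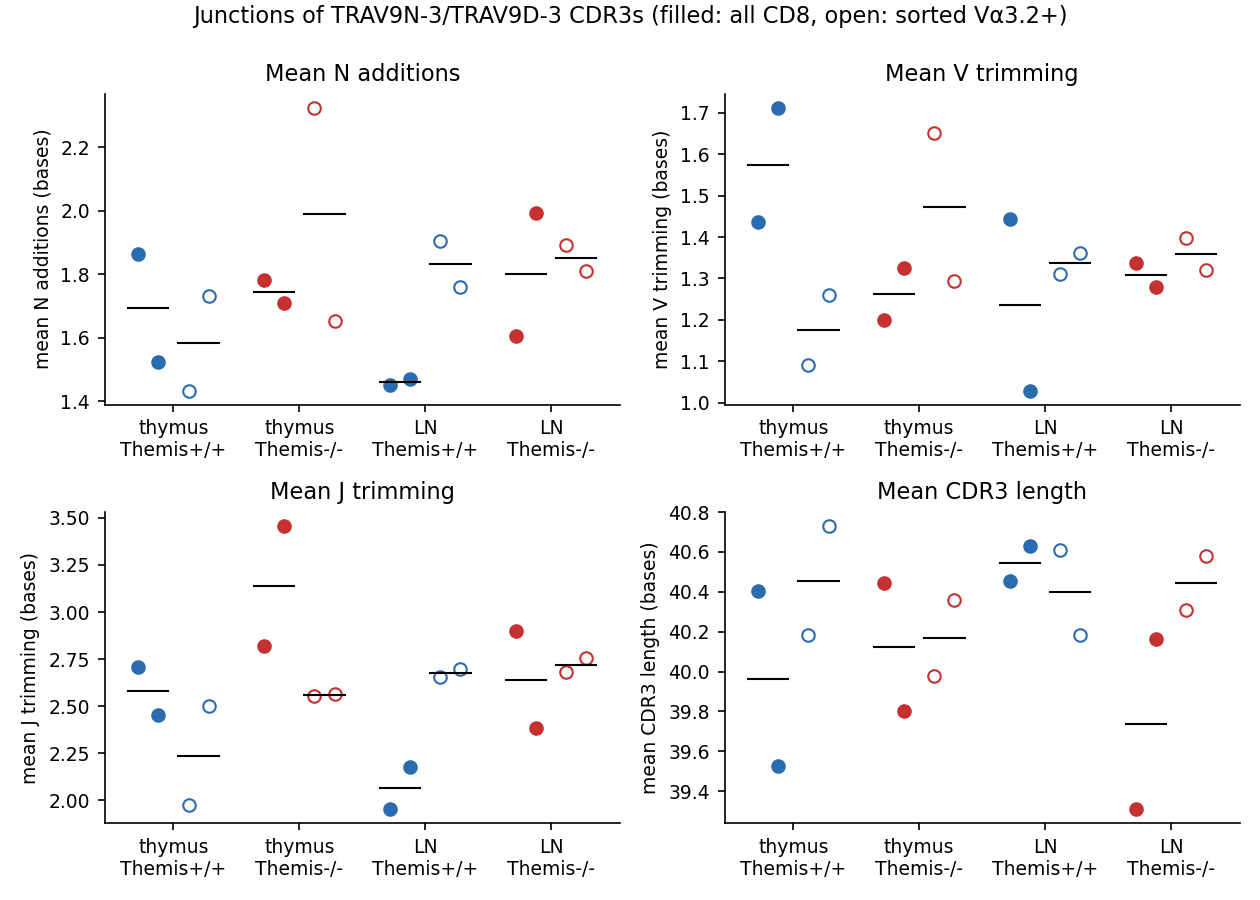
Mean N additions, V trimming, J trimming and CDR3 length (bases) of member CDR3s in each of 16 libraries, filled for all CD8 cells and open for sorted Vα3.2+ cells, blue for Themis+/+ and red for Themis-/-. Short bars are means of 2 libraries, and the vertical axes do not start at 0. J trimming is the measure in which red points lie above blue ones in 3 of 4 strata.

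The other junction measures of the members did not differ detectably between genotypes. N additions averaged 1.85 bases in Themis-/- and 1.64 in Themis+/+, a difference of 0.203 (exact permutation test, adjusted p = 0.319). V trimming differed by 0.0198 bases, CDR3 length by -0.222 bases and mean J segment number by 0.106 (exact permutation tests, adjusted p = 0.971, 0.540 and 0.971). Between LN and thymus the adjusted p was 0.880 for all 7 measures (exact permutation tests), with N additions of 1.74 and 1.75 bases, V trimming of 1.31 and 1.37 bases, and J trimming of 2.52 and 2.63 bases.

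The number of distinct member sequences was compared at equal member reads within each kind of library. At 9153 reads, sorted LN libraries held 1140 and 485 sequences in Themis+/+ and 1354 and 585 in Themis-/-, and sorted thymic libraries 75.7 and 280 in Themis+/+ and 83.0 and 347 in Themis-/-. Every sorted LN library lay above every sorted thymic library. At 687 reads, libraries of all CD8 cells held 123 and 66.4 in Themis+/+ LN, 148 and 129 in Themis-/- LN, 136 and 80.0 in Themis+/+ thymus and 128 and 124 in Themis-/- thymus. Here the tissues overlapped.

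Over all 16 libraries LN exceeded thymus by 1.17 on the log2 scale (exact permutation test, p = 0.0478). The value was 2.37 in sorted libraries (exact permutation test, p = 0.0556, the smallest possible there) and -0.04 in all CD8 cells (exact permutation test, p = 0.889), and the sorts thus gave different values. The pooled call was lost after merging J-end variants (1.07, exact permutation p = 0.0833). It was also lost when any of 10 libraries was left out. These were library 1 of each LN group of all CD8 cells (1.06 and 1.14), library 2 of all Themis+/+ thymocytes (1.07), all 4 sorted LN libraries (1.01 to 1.32), both sorted Themis+/+ thymic libraries (0.931 and 1.403) and library 1 of sorted Themis-/- thymocytes (0.91), at p from 0.0509 to 0.114 by exact permutation tests. Between genotypes the difference was 0.34 (log2, exact permutation test, p = 0.343). Among libraries of the same number, tissue and sort, Themis-/- was higher in 7 of 8 pairs, and with labels permuted within number p was 0.0156 (exact permutation test). The paper states that the data of a genotype were combined from 2 experiments. No source says whether the numbers stand for these experiments. The methods state similar cell numbers for all CD8 libraries and none per library, so cell numbers and diversity cannot be told apart.

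Most member sequences were private, and those found in both genotypes had shorter insertions. The sorted libraries together held 3667 distinct member nucleotide sequences, of which 3111 (84.8%) were in a single library, 103 in at least 4 and 2 in all 8. In a sorted library 21.8% to 36.8% of the member sequences, with 34.9% to 48.02% of the member reads, were also found in a sorted library of the other genotype. These shared sequences had a mean of 0.631 to 0.890 N bases, against 1.85 to 3.09 for the remaining ones, and the ranges do not overlap. The mean difference was -1.55 bases, in the same direction in 8 of 8 libraries. The same shared sequences enter several libraries, which are therefore not independent here, and the value is a description. Sequences in at least 4 sorted libraries had methionine at position 5 in 37.9% of cases, against 18% of sequences in a single library, given as a description.

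**Figure D5:**
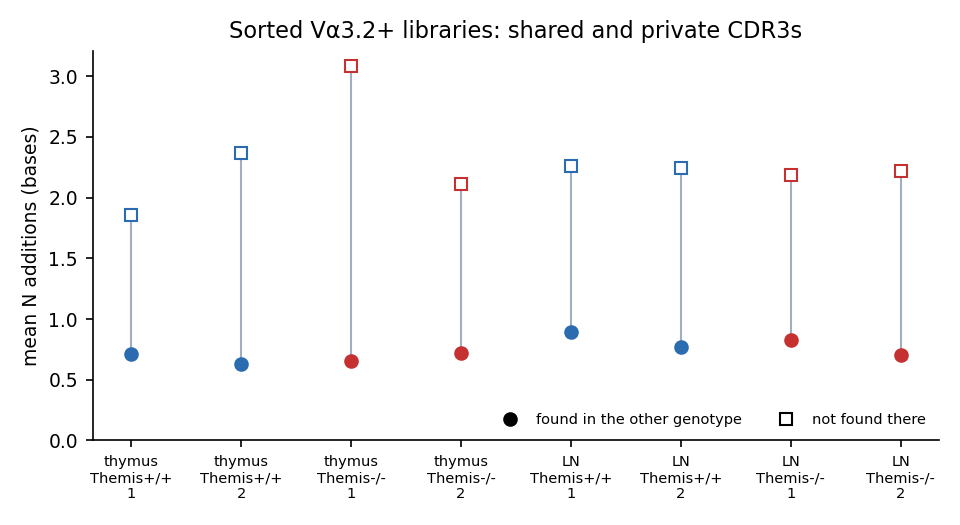
Mean N additions of member CDR3s in each of the 8 sorted libraries, for sequences also found in a sorted library of the other genotype (filled circles) and for the remaining sequences (open squares). In every library the circle, at 0.631 to 0.890 bases, lies below the square, at 1.85 to 3.09.

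Of the most widely shared member CDR3s, 2 were in 8 sorted libraries and 6 in 7. The former and the 4 of the latter with the highest mean share of member reads are shown with their J segment. Of these, 4 carry the ATG at position 5, and none has an insertion longer than 1 base. Capitals mark the bases that match neither the 13 germline V bases nor the germline J segment.
TRAJ9: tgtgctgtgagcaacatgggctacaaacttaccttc
TRAJ7: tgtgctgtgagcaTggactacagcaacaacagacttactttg
TRAJ33: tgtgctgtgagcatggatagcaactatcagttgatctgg
TRAJ21: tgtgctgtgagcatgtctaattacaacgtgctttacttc
TRAJ4: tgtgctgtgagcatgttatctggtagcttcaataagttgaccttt
TRAJ15: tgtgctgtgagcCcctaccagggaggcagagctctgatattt

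The TRAJ9 sequence was found in all 8 sorted libraries and in 4 of the 8 libraries of all CD8 cells. It held 0.567% and 1.71% of member reads in sorted Themis+/+ thymus, 1.20% and 0.233% in Themis-/- thymus, 0.791% and 0.978% in Themis+/+ LN and 0.663% and 1.18% in Themis-/- LN, with no separation of the groups. It has no inserted base, and 4 of its bases match the V end and the J start alike. The TRAJ7 sequence was the other one in all 8 sorted libraries, at 0.0103% to 0.910% of member reads. The TRAJ33, TRAJ21, TRAJ4 and TRAJ15 sequences were each in 7 sorted libraries, with mean shares of 0.886%, 0.661%, 0.653% and 0.496% of member reads.

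Before merging of J-end variants, the member sequence with most reads differed between groups of all CD8 cells. In the sorted LN groups it was the same in both genotypes. This TRAJ26 sequence, with capitals as above, carries methionine at position 5.
TRAJ26: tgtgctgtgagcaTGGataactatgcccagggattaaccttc
It held 0.641% and 3.05% of member reads in sorted Themis+/+ LN and 4.38% and 0.772% in sorted Themis-/- LN, and over both kinds of library it was found in 8 of 16. In all Themis+/+ LN cells the leading sequence, joined to TRAJ11, was read in library 2 and not in library 1, and it held 29.2% of member reads there. In all Themis-/- LN cells the leading TRAJ45 sequence was read in library 1 and not in library 2, at 7.51%.

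Of the merged member sequences in a library of all LN CD8 cells, 28.2% and 48% in Themis+/+ and 32.0% and 45.5% in Themis-/- were also found in the sorted LN libraries of that genotype. In thymus the shares were 11.4% and 13.7% in Themis+/+ and 14.1% and 13.7% in Themis-/-. As a share of the merged sequences in the sorted libraries the overlap was 1.37% to 1.81% in LN and 2.05% to 3.80% in thymus.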

How the data were processed

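TCRα cDNA of 16 libraries was made by template switching, amplified with a constant-region primer, read on a MiSeq and processed by the authors with MiXCR and VDJtools (versions: not given in the sources used here), with CASAVA 1.4 and mm9 named in the submitters' processing notes. The authors deposited unnormalized read counts per CDR3 and the fraction of a library's reads, which equals count over total. Libraries of all CD8 cells held 57455 to 146191 reads and sorted libraries 10338 to 25247.

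Read counts per V segment (at least 10 reads in 2 libraries) and distinct sequences per J segment (at least 5 in 2 libraries) were tested with edgeR 4.0.16 (TMM, quasi-likelihood) in R 4.3.3, with Benjamini-Hochberg adjustment, and with DESeq2 1.42.0 as an alternative. Per-library means were compared by exact permutation tests, stratified over 1296 labellings or by 256 sign patterns, adjusted over 7 measures. N additions and J trimming came from the tables' reference points, as the bases between the V and J ends and those missing from the J start. V trimming was counted from the GENCODE end to the V end in the same reference points. The tests were checked on simulated data. Members, lists and tests were chosen with earlier results of these data known. V and J segments named are the members, the TRAV9 list, the 3 most alike by read share and by J use, and the 6 leading J segments. CDR3s named are the 6 in most sorted libraries, ties broken by mean share of member reads, and the leading one of a group. Others were named after their values were seen. Merging of J-end variants and exact germline matches were added as alternatives after the data were seen. Library numbers were not treated as pairs. With 2 libraries a group, p-values measure only the spread between these libraries. The tests also take libraries of different tissue or sort as independent, although these may share mice or pools.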

Additional observations from a re-analysis of the deposited data

Results flagged for a closer look

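The share of member sequences joined to TRAJ9 moved in opposite directions in sorted LN and thymus. In LN it was 6.65% and 6.04% in Themis+/+ and 7.46% and 6.90% in Themis-/-, higher by 0.839 percentage points, with both Themis-/- libraries above both Themis+/+ libraries. In thymus it was 13.2% and 9.96% in Themis+/+ and 9.64% and 6.92% in Themis-/-, a difference of -3.28 points, with both Themis-/- libraries below. The thymic shares of library 1 rest on 76 and 83 member sequences. The difference of the genotype effects was 0.85 on the log2 scale in edgeR (unadjusted p = 0.0280, adjusted p = 0.336 over 36 J segments), so it did not pass.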

How the results depend on the processing

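Direction and call were kept in 215 results under alternatives that used all libraries, while 22 reversed and 19 lost a call. With 1 library left out 342 kept both, 31 reversed and 27 lost a call. Values are log2 differences for read shares and numbers of sequences, bases for trimming, N additions and length, and percentage points for shares of sequences, and the cause of each shift was not tested. With 4 libraries fitted, the member share lost its call in LN between genotypes (1.61, adjusted p = 0.209, edgeR) and between tissues in Themis-/- (1.70, adjusted p = 0.134, edgeR), as it did with TRAV9N-3 alone (1.85 and 1.33, adjusted p = 0.0602 and 0.176, edgeR). Between genotypes in LN, V segments called numbered 7 by DESeq2 and 3 by edgeR. Merging J-end variants gave 1 J partner called between tissues in Themis-/- where 0 were called before. J trimming between genotypes lost its call with TRAV9N-3 alone (0.497), exact matches (0.376), all CD8 libraries (0.568) and sorted libraries (0.182). LN against thymus in numbers of sequences lost its call as amino acid sequences (1.07), merged (1.07), by Shannon entropy (1.21) and in sorted libraries (2.37), and reversed in all CD8 libraries (-0.0381). Against other V segments, CDR3 length lost its call with TRAV9N-3 alone (-0.134) and by reads (-0.278), N additions by reads (-0.207), and sequences without N by reads (1.60) and without single reads (9.21).

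These values passed no test and changed sign. Between genotypes, J number was -0.547 merged and -0.150 in all CD8 libraries, V trimming -0.0526 with TRAV9N-3 alone, -0.0168 merged, -0.120 in all CD8 libraries and -0.131 by reads, and methionine -0.105 with TRAV9N-3 alone, -0.548 without single reads and -2.56 in sorted libraries. Between tissues, N additions were 0.0226 by exact match, 0.134 by reads and 0.0553 in sorted libraries, V trimming 0.0802 by reads and 0.0237 in sorted libraries, J trimming 0.300 in sorted libraries, sequences without N 1.96 with TRAV9N-3 alone, 0.0751 in all CD8 libraries and 0.997 without single reads, and methionine 4.55 with TRAV9N-3 alone and 1.05 in all CD8 libraries. Against other TRAV9 segments J trimming was -0.0243.

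Leaving out 1 library at a time gave 1.22 to 2.26 for the member share between genotypes in LN, 1.35 to 1.95 between tissues in Themis-/- and -0.28 to 0.78 in Themis+/+. Between genotypes it gave 0.295 to 0.454 for J trimming, -0.488 to 0.701 for J number, -0.0321 to 0.0716 for V trimming and -1.61 to 1.86 for methionine. Between tissues it gave 0.91 to 1.42 for numbers of sequences, -0.101 to 0.0666 for N additions, -0.00730 to 0.212 for length, -4.26 to 1.32 for sequences without N and -2.27 to 1.19 for methionine. Against other V segments J trimming ran from -0.0725 to 0.130.

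Deviations of same-numbered libraries from their group means had r from -0.216 to 0.0345 over 6 pairs of groups for V segments in all CD8 cells, -0.199 to 0.333 for J partners in sorted cells and -0.00200 to 0.818 for the 7 V segments of sorted cells, where library 2 held fewer members in each group. Not every pair exceeded 0.1, so the numbers were not used as pairs, although the sorted libraries deviated together in part. This last check was added after the data were seen. With the replicate number as a block, the member share was 1.52 between genotypes in LN and 1.60 between tissues in Themis-/- (adjusted p = 0.0433 and 0.0291, edgeR). J trimming between genotypes, 0.375, then had an adjusted p of 0.0547 and the tissue difference in numbers of sequences, 1.17, a p of 0.0781, while the genotype difference in numbers of sequences, 0.34, had a p of 0.0156 (exact permutation tests). V segments called between tissues in Themis-/- numbered 2 in place of 3, without TRAV6-2, and no other call on the members changed.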
